A study of Mus musculus with 12 samples.

Results

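Rbp7, Fabp4 and Gpihbp1 are 3 of the 55401 genes listed for each heart library, and all 3 were among the 6596 genes with enough counts to be tested. Rbp7 was chosen by its measured level, which was lower on ribosomes of Rpl3l-/- hearts, and Fabp4 and Gpihbp1 were chosen because they belong to the same lipid-handling equipment of capillaries and fat tissue. Adult mouse hearts of 2 genotypes were compared, wild type (WT) and Rpl3l-/- (KO), which lacks the heart and skeletal muscle form of ribosomal protein L3. From each genotype there were 3 libraries of ribosome-bound RNA (IP), pulled down with an antibody against the HA tag from hearts held in cycloheximide, a drug that arrests translating ribosomes, and 3 libraries of total heart RNA (Input), extracted with TRIzol. The series describes the 3 libraries of a group as biological triplicates. The antibody implies HA-tagged ribosomes in the IP hearts of both genotypes. Which cells carried the tag, the strain, the age in weeks and whether an IP and an Input library came from 1 heart are not given in the labels. Poly(A) RNA was sequenced as cDNA on a nanopore MinION, so that 1 count is about 1 read of a transcript.

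Heart muscle burns mostly fatty acids, and these must first cross the wall of the capillary. GPIHBP1 is the capillary protein that picks up lipoprotein lipase from the space around muscle cells, carries it through the endothelial cell and holds it on the vessel wall, where the enzyme cuts the triglycerides of passing lipoproteins. FABP4 is a small soluble carrier of fatty acids, abundant in adipocytes and in capillary endothelium of heart and fat, and also made by macrophages. RBP7 is a carrier of the same protein family that binds retinol, and is found in capillary endothelium and in adipose tissue. Fabp4 and Rbp7 are known targets of the fatty acid-sensing nuclear receptor PPAR gamma.

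All positions refer to mouse build GRCm38 and the GENCODE M21 annotation. Rbp7 (ENSMUSG00000028996.9) lies on the minus strand of chromosome 4 at chr4:149449687-149454978, and its transcript has 619 bases in 4 exons. Fabp4 (ENSMUSG00000062515.3) lies on the minus strand of chromosome 3 at chr3:10204088-10208576, with 896 bases in 4 exons. Gpihbp1 (ENSMUSG00000022579.10) lies on the plus strand of chromosome 15 at chr15:75596628-75599481; its longest annotated transcript has 1652 bases, and the transcript with the longest coding region has 825. Their coding regions hold 134, 132 and 228 codons before the stop. As members of 1 protein family, Rbp7 and Fabp4 share 52.3% of 396 aligned coding bases. Fabp4 shares 60.9% of 399 aligned bases with Fabp5, a fatty acid carrier also made by capillary endothelium, and 63.9% with the muscle form Fabp3. The most similar 90-base blocks of 2 pairs are printed to show how far apart the carriers are in sequence even where they are most alike. Capitals mark the bases that differ within a pair, 32 of 90 between Rbp7 and Fabp4 and 26 of 90 between Fabp4 and Fabp5, and positions count from the first base of the coding region.
Rbp7 coding bases 12 to 101: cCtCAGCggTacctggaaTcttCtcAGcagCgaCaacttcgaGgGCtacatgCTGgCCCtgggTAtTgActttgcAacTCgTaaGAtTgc
Fabp4 coding bases 12 to 101: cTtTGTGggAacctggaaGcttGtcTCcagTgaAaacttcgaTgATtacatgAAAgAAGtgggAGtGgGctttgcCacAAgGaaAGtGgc
Fabp4 coding bases 267 to 356: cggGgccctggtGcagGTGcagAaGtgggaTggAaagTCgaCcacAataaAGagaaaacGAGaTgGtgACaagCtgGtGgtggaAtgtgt
Fabp5 coding bases 273 to 362: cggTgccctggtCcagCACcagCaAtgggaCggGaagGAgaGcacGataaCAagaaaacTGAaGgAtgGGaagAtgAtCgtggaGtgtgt

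Against all annotated transcripts, no other gene matched any of the 3 over at least 200 bases at 90% identity or more. The longest match of Fabp4 was to the myelin carrier gene Pmp2 (374 bases at 74.1%), and Gpihbp1 had none. Gpihbp1 is unlike the carriers: it belongs to the Ly6 family of surface proteins, and near its start it encodes an acidic stretch that takes part in the interaction with lipoprotein lipase. That stretch is shown because it is what sets the gene apart from other Ly6 members; capitals mark the codons for aspartate or glutamate, and they make up 17 of these 25 codons against 24 of the 229 codons of the whole coding region.
Gpihbp1 coding bases 70 to 144: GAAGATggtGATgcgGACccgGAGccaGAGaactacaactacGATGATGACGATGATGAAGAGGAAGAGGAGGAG

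Library totals ran from 169359 counts (KO Input 3) to 710868 (KO IP 2), so that 3 counts correspond to 4.22 to 17.7 counts per 1000000, before scaling. Elsewhere CPM means counts per 1000000 counts of the library, after scaling. Rpl3l itself averaged 272 ± 2.75 CPM in WT IP and 4.42 ± 3.37 in KO IP (SD, n = 3 each), and 269.6 ± 43.9 in WT Input against 48.9 ± 20.9 in KO Input, lower in KO with edgeR (log2 fold change -2.46, SE 0.27, adjusted p 1.77e-05 in Input). Red cell globin transcripts took 1.70 to 17.2% of the counts and were highest in WT IP 2 and WT Input 3. Endothelial cells were well represented: 33 of 35 pan-endothelial markers passed the count filter, and their summed level was 2734 to 3461 CPM in the Input libraries and 2799 to 3201 in the IP libraries. Cav1 of that list and the cardiac actin gene Actc1 were listed at 0 in all 12 libraries, so a 0 in these tables need not mean that a gene is silent.

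Rbp7 lay below WT on KO ribosomes and above WT in KO total RNA. On ribosomes, the contrast that picked it, Rbp7 was at 77.0, 90.8 and 68.7 CPM in the 3 WT libraries and at 14.0, 27.5 and 24.9 in the 3 KO libraries. Every KO IP library thus lay under every WT IP library, and the KO mean of 22.1 ± 7.16 was 3.56-fold lower than the WT mean of 78.8 ± 11.2 (SD, n = 3 each). These were 144 counts in WT and 42 in KO, with the smallest library value, 6 counts in KO IP 1, carrying an exact Poisson interval of 2.20 to 13.1 counts (95%, counting error only). The fitted log2 fold change was -1.77 (SE 0.30), given as a description with no test. Of all genes tested, 5.44% had every KO IP library under every WT IP library, and 0.0910% passed the edgeR threshold in that contrast in either direction (an adjusted p under 0.05 after Benjamini-Hochberg adjustment over all 6596 genes).

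In total RNA, whose libraries did not enter the choice, Rbp7 was at 49.9, 61.7 and 26.9 CPM in WT and at 87.6, 88.6 and 73.9 CPM in KO. All 3 KO Input libraries lay above all 3 WT Input libraries, which was the case for 6.17% of the genes tested. The KO mean was 83.4 ± 8.23 and the WT mean 46.1 ± 17.7 (SD, n = 3 each), a ratio of 1.81. With edgeR the log2 fold change was 0.83 (SE 0.32, 95% interval 0.16 to 1.496, unadjusted p 0.0176), which did not pass after adjustment over all genes (adjusted p 0.580). That contrast called 0.182% of the genes tested, 12 in all, while 469 had an unadjusted p under 0.05. Rbp7 rests on few counts here, 53 in WT Input and 59 in KO Input. The lowest WT value came from WT Input 3; without that library the log2 fold change was 0.58 (adjusted p 0.804). Because whole hearts were used, fewer cells of a type and less of a transcript per cell cannot be told apart in any of these values.

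The IP to Input ratio of Rbp7 therefore had opposite signs in the 2 genotypes. In WT hearts all 3 IP libraries were above all 3 Input libraries, with a log2 fold change of 0.73 (SE 0.29), and 16.4% of the genes tested had such a separation. In KO hearts all 3 were below, with -1.86 (SE 0.34), as were 15.6% of genes. The genotype difference of that ratio was -2.59 on the log2 scale (SE 0.45, 95% interval -3.51 to -1.67). All of these hold the IP libraries that picked Rbp7, so they stand here with no test. Ordered by level, Rbp7 was highest in KO Input and WT IP, whose ranges overlapped (73.9 to 88.6 and 68.7 to 90.8 CPM), then in WT Input (26.9 to 61.7) and lowest in KO IP (14.0 to 27.5), and these last ranges overlapped only through WT Input 3 and KO IP 2.

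**Figure D1:**
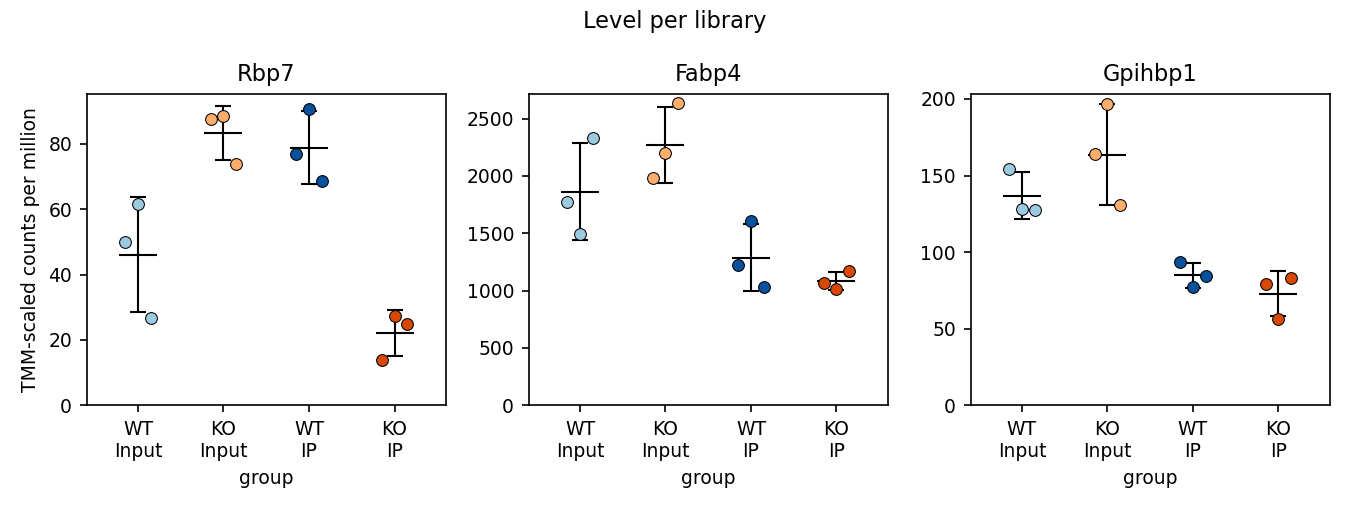
Level of Rbp7, Fabp4 and Gpihbp1 in each of the 12 libraries, in CPM after TMM scaling, on axes that start at 0; points are libraries, long bars group means and short bars 1 SD (n = 3). Rbp7 in KO IP (14.0 to 27.5) lies under its WT IP values (68.7 to 90.8), whereas the genotypes overlap for Fabp4 and Gpihbp1 in both kinds of RNA.

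Fabp4, the fatty acid carrier, had genotype differences of the same signs as Rbp7 but smaller in size, and its genotypes overlapped in both kinds of RNA; the difference from Rbp7 was not tested. On ribosomes it was at 1220, 1605 and 1035 CPM in WT and at 1069, 1014 and 1172 CPM in KO. On ribosomes the fitted log2 fold change was -0.25 (SE 0.18), again a description. In total RNA it was at 1775, 1489 and 2328 CPM in WT and at 1984, 2196 and 2637 CPM in KO. The Input groups overlapped through WT Input 3, and edgeR gave a log2 fold change of 0.29 (SE 0.18, 95% interval -0.09 to 0.66, adjusted p 0.784). Leaving out 1 library gave 0.14 (without WT Input 2) to 0.46 (without WT Input 3), and 0.17 without KO Input 3, none of which passed. The interval leaves room for a rise of up to 0.66 in KO, so the data do not show that the genotypes were alike.

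Fabp4 was lower on ribosomes than in total RNA in KO hearts. The 3 IP libraries (1014 to 1172 CPM) were all below the 3 Input libraries (1984 to 2637), as for 15.6% of the genes tested. The KO Input mean was 2.09-fold the KO IP mean, and edgeR gave a log2 fold change of -1.06 (SE 0.19, 95% interval -1.45 to -0.68, adjusted p 0.000235). In the same contrast 9.78% of the genes tested were called lower in IP and 6.64% higher. In WT hearts the groups overlapped, since WT IP 2 at 1605 CPM was above WT Input 2 at 1489. There the log2 fold change was -0.53 (SE 0.18, 95% interval -0.91 to -0.16) and just missed the threshold with edgeR (adjusted p 0.0519). It passed without WT IP 2 (-0.72, adjusted p 0.0228) and without WT Input 2 (-0.67, adjusted p 0.0295), and was smaller without WT Input 3 (-0.35, adjusted p 0.289), WT IP 3 (-0.39, adjusted p 0.245) or WT IP 1 (-0.48, adjusted p 0.178). The WT contrast called 8.67% of genes lower and 5.37% higher. The genotype difference of the Fabp4 ratio was -0.53 (SE 0.26, 95% interval -1.06 to 0.00), a description with no test.

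Gpihbp1 is the anchor of lipoprotein lipase. On ribosomes it was at 93.3, 77.1 and 84.5 CPM in WT and at 79.3, 56.3 and 83.1 CPM in KO. In total RNA it was at 154.5, 128.2 and 127.6 CPM in WT and at 163.8, 196.4 and 130.7 CPM in KO. The genotypes overlapped in both kinds of RNA. Every IP library was below every Input library of its genotype, as for 18.2% of the genes tested in WT and 15.6% in KO. Between genotypes the log2 fold change was 0.27 in Input (SE 0.22, 95% interval -0.18 to 0.73, edgeR adjusted p 0.849) and -0.24 in IP (SE 0.22, a description).

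Gpihbp1 was called lower on ribosomes in both genotypes, as were 8.67% of all genes in WT and 9.78% in KO. In KO hearts the Input mean of 163.6 ± 32.9 CPM was 2.24-fold the IP mean of 72.9 ± 14.5 (SD, n = 3 each), with an edgeR log2 fold change of -1.20 (SE 0.23, 95% interval -1.67 to -0.73, adjusted p 0.000587). In WT hearts the means were 136.8 ± 15.4 and 85.0 ± 8.09 CPM, and the log2 fold change was -0.69 (SE 0.21, 95% interval -1.13 to -0.25, adjusted p 0.0317). All 3 WT IP libraries were under all 3 WT Input libraries, as for 18.2% of the genes tested. The WT call is a narrow one: it was lost on leaving out any 1 of the 6 WT libraries, with log2 fold changes of -0.74 to -0.59 and adjusted p 0.0583 to 0.155. The genotype difference of the ratio was -0.52 (SE 0.31, 95% interval -1.16 to 0.12), which is given without a test.

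**Figure D2:**
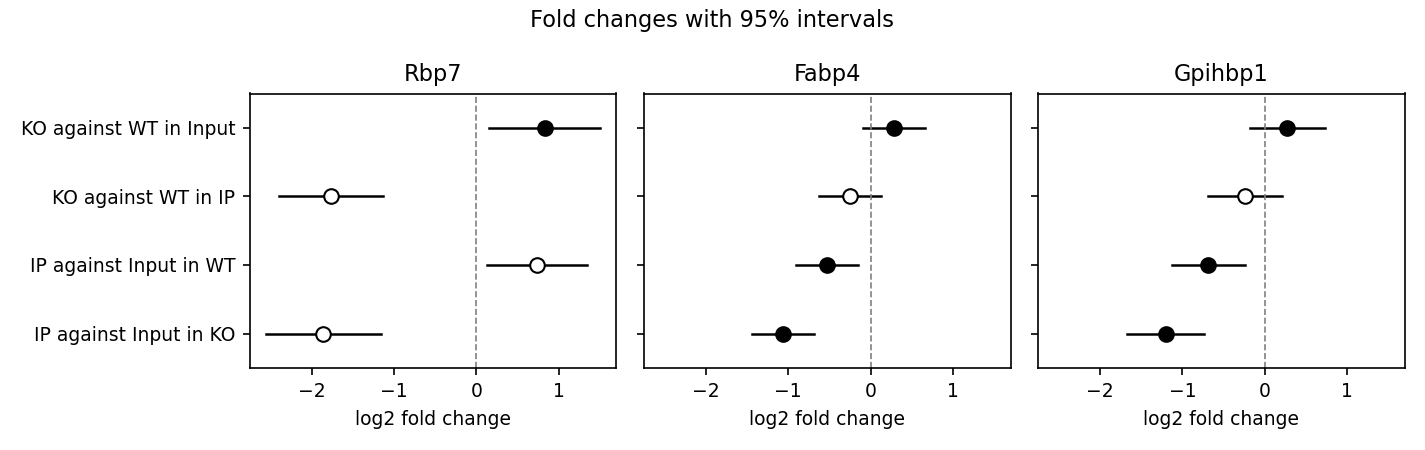
Fitted edgeR log2 fold changes of the 3 genes in 4 contrasts, with 95% intervals. Filled points were tested and open points are descriptions. Open points are KO against WT in IP for all 3 genes, the contrast that picked Rbp7. For Rbp7 alone, both IP against Input contrasts are also open, because its IP libraries entered that choice. Rbp7 is at 0.83 in Input and -1.77 in IP for KO against WT, whereas Fabp4 and Gpihbp1 lie left of 0 in both IP against Input contrasts.

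Ratios of 2 genes within a library do not depend on how libraries are scaled. Those of Rbp7 on ribosomes restate the contrast that picked it and are given as a description. Rbp7 had 56.6 to 66.3 counts per 1000 Fabp4 counts in WT IP and 13.1 to 27.1 in KO IP. In Input the ratio was 28.1, 41.4 and 11.5 in WT and 44.1, 40.4 and 28.0 in KO, and these groups overlapped. Per 1000 summed counts of the pan-endothelial markers, Rbp7 had 23.7 to 32.4 in WT IP and 4.74 to 8.58 in KO IP, and 9.69 to 21.2 in WT Input against 21.3 to 32.03 in KO Input. Gpihbp1 relative to Fabp4 overlapped across all 4 groups, with 49.6 to 89.5 Gpihbp1 counts per 1000 Fabp4 counts in KO Input, 54.8 to 87.1 in WT Input, 48.0 to 81.6 in WT IP and 55.5 to 74.2 in KO IP.

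Of 6 such ratios tested between genotypes in Input with a two-sided exact permutation test, the lowest p was 0.1 for Rbp7 over pan-endothelial counts (adjusted p 0.6 over the 6 ratios), and 0.1 is the smallest value that 3 against 3 libraries allow. Rbp7 over Gpihbp1 gave an exact p of 0.2 and Rbp7 over Fabp4 an exact p of 0.5. The ratios in IP were not tested, since they hold the contrast that picked Rbp7.

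**Figure D3:**
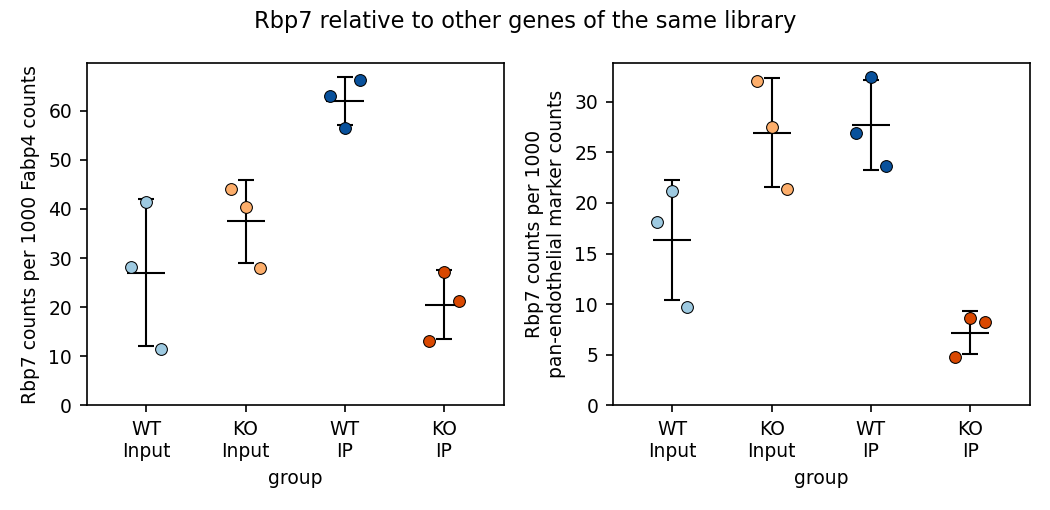
Rbp7 counts per 1000 Fabp4 counts (left) and per 1000 counts of the pan-endothelial markers (right) in each library, on axes that start at 0; points are libraries, long bars group means and short bars 1 SD (n = 3). KO IP libraries lie at 13.1 to 27.1 and 4.74 to 8.58, under the WT IP libraries at 56.6 to 66.3 and 23.7 to 32.4.

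Compared per kilobase of the transcript with the longest coding region, Fabp4 was the most abundant of the 3 genes in every group. In WT Input it averaged 2080 CPM per kilobase, Gpihbp1 166 and Rbp7 74.5. Since 1 count is about 1 read of a transcript here, counts need no division by length, and dividing raises short transcripts relative to long ones. In CPM with no length taken into account, Fabp4 was again the most abundant, and the mean of Gpihbp1 was above that of Rbp7 in every group. Their WT IP ranges overlapped in CPM too (77.1 to 93.3 for Gpihbp1 and 68.7 to 90.8 for Rbp7). On WT ribosomes Rbp7 had 127 CPM per kilobase (111 to 147) and Gpihbp1 103 (93.4 to 113), with ranges that overlapped, so their order is not settled there. On KO ribosomes Rbp7 was at 35.8 (22.6 to 44.4) and Gpihbp1 at 88.4 (68.2 to 101), with no overlap. Among other carriers of the family, Fabp3, the muscle form that supplies cardiomyocyte mitochondria, stood at 8827 CPM per kilobase in WT Input, above Fabp4, whereas Fabp5 stood at 100.1. Neither relative passed the threshold between genotypes in Input: Fabp3 had a log2 fold change of -0.19 and Fabp5 of -0.11, with edgeR adjusted p 0.902 and 0.953.

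Transcript length moved with the IP to Input ratio of all genes, and the 3 genes described here have short transcripts. By longest annotated transcript, the 532 tested genes under 1000 bases had a median log2 ratio of -0.49 in WT and -0.56 in KO, and the 1340 genes of 1000 to 2000 bases had -0.20 and -0.21. Genes of 4000 bases or more, 2345 in number, had medians of 0.20 and 0.26. Fabp4 at -0.53 in WT is within the middle 50% of genes under 1000 bases (-0.98 to -0.02), and at -1.06 in KO it is just below the lower quartile of -1.05. Rbp7 falls in the same class, above its upper quartile in WT and below its lower quartile in KO. Gpihbp1, in the class of 1000 to 2000 bases, was below the lower quartile in both genotypes (quartile -0.61 in WT and -0.64 in KO). By its 825-base transcript it would join the shorter class, within the middle 50% in WT and below the lower quartile in KO. The part of length in these ratios was not tested.

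**Figure D4:**
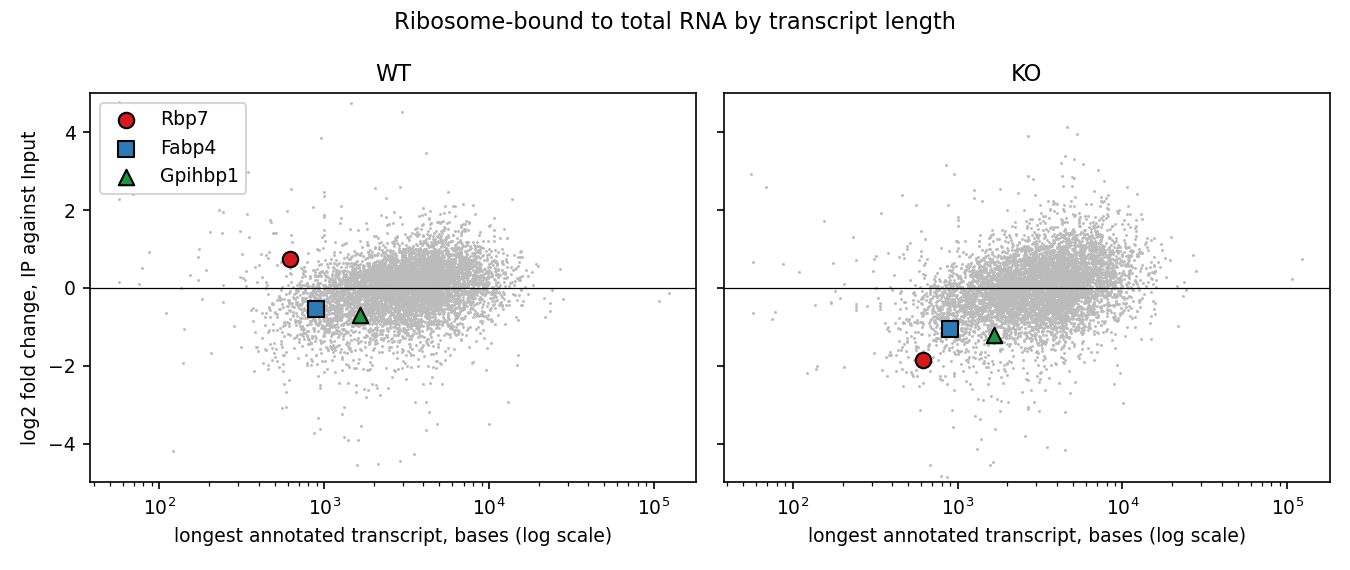
Log2 fold change of IP against Input for each tested gene (grey) against the length of its longest annotated transcript in bases (log axis), in WT and KO hearts; 6594 genes have a length, and 13 points fall outside the vertical axis. Rbp7 lies at 0.73 in WT and -1.86 in KO, while Fabp4 and Gpihbp1 lie below 0 in both.

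Fat tissue can come along with a dissected heart, and adipocytes make Fabp4 while adipose tissue contains Rbp7. Of 22 adipocyte markers, 12 were tested, and 7 were lower in IP than in Input in each genotype while none was higher, against 8.67% of all genes called lower and 5.37% higher in WT, and 9.78% and 6.64% in KO. Their median log2 fold change was -1.96 in WT and -2.25 in KO, against 0.02 and 0.01 for all genes tested. Leaving out 1 library at a time gave 6 to 10 lower markers in WT and 4 to 8 in KO (6 without WT Input 3 and 4 without KO Input 1). Their summed level was 1312 to 3802 CPM in WT Input, 1335 to 2064 in KO Input, 864 to 1044 in WT IP and 698 to 913 in KO IP. Cfd, the adipocyte protease adipsin, was at 66.6 to 289 CPM in WT Input, 131 to 270 in KO Input and 8.57 to 31.7 in the IP libraries (edgeR log2 fold change -3.35, SE 0.44, adjusted p 6.16e-06 in WT). Elovl3 and Lipe were listed at 0 in all 12 libraries.

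Between genotypes in Input no adipocyte marker passed the threshold with edgeR, DESeq2 or limma-voom, and edgeR called 0.182% of all genes. Unadjusted edgeR p was under 0.05 for 3 of the 12, against 469 of all 6596 genes tested. The median log2 fold change of the 12 was -0.36. The list was highest in WT Input 3, at 3802 CPM, against 2361 and 1312 in WT Input 1 and 2. Adipoq, the adipocyte hormone adiponectin, was at 62.3, 12.3 and 111 CPM in WT Input and at 22.8, 15.4 and 5.68 in KO Input, and it reached at most 7.04 in the IP libraries. WT Input 3 was also the WT Input library with the highest Fabp4 (2328 CPM) and the lowest Rbp7 (26.9 CPM). The fold changes of both genes without that library are given with their other values. The part of fat tissue in the levels of the 3 genes was not tested. Macrophage markers, for the other cell type that makes Fabp4, gave no call with edgeR among 11 tested in Input between genotypes or in IP against Input, where 1 had an unadjusted p under 0.05 in each contrast. DESeq2 and limma-voom called none either, and their summed level overlapped between all 4 groups (769 to 1273 CPM in WT Input and 935 to 1136 in KO IP). Of all genes, edgeR called 14.0% in IP against Input in WT and 16.4% in KO. Its unadjusted p was under 0.05 for 1835 of all 6596 genes in WT and 1936 in KO, and for 469 between genotypes in Input.

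The other genes of capillary fatty acid uptake showed no genotype call. Of 20 listed, 16 were tested and none passed with edgeR, DESeq2 or limma-voom in Input or in IP, with 1 at an unadjusted p under 0.05 in each. Such an unadjusted edgeR p was found for 469 of all 6596 genes in Input and 343 in IP. Their median log2 fold change was -0.10 in Input and -0.06 in IP, against -0.01 and 0.00 for all genes. Of all genes tested, edgeR called 0.182% between genotypes in Input and 0.0910% in IP, so a short list with no call says little. In simulated counts for the Input contrast, the fit recovered 33% of changes of 1 on the log2 scale and 75% of changes of 2. The changed genes were drawn at random from all genes tested, so these shares need not hold for abundant genes of the list. Lpl, the enzyme that GPIHBP1 carries, was at 4699 to 5454 CPM in WT Input and 4268 to 5495 in KO Input (edgeR log2 fold change -0.03, SE 0.17, adjusted p 0.977). Cd36, the fatty acid translocase, was at 1501 to 1867 CPM in WT Input and 1584 to 2131 in KO Input (0.08, SE 0.17, adjusted p 0.944).

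Between IP and Input, 1 of the 16 tested genes of that list was called higher and 1 lower in WT, and 1 higher and 3 lower in KO. Of all genes, 5.37% were called higher and 8.67% lower in WT, and 6.64% and 9.78% in KO. Flt1, the VEGF receptor that binds VEGF-B, was higher on ribosomes in both (log2 fold change 0.81 in WT and 1.35 in KO, edgeR adjusted p 0.0120 and 0.000277). Fabp3 was lower in both (-0.86 and -0.74, adjusted p 0.00779 and 0.0196), and Cd36 was lower in KO (-0.79, SE 0.17, adjusted p 0.00162) but not called in WT (-0.45, adjusted p 0.0654). The WT call of Flt1 was lost without WT Input 1, WT Input 3 or WT IP 2 (0.71 to 0.74, adjusted p 0.0599 to 0.0876), and the KO call of Fabp3 without KO Input 1, KO Input 2, KO IP 2 or KO IP 3 (-0.75 to -0.54, adjusted p 0.0556 to 0.145). The count of lower genes in KO was 1 without KO IP 2 and up to 4 on leaving out another library. Lpl was not called in either genotype (0.24 in WT and 0.37 in KO, edgeR adjusted p 0.389 and 0.148). Its values were positive where those of its anchor Gpihbp1 were negative. The longest annotated Lpl transcript has 4115 bases, and genes of 4000 bases or more had medians of 0.20 in WT and 0.26 in KO. The difference between Lpl and Gpihbp1 was not tested.

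Of 28 retinoid genes other than Rbp7, 11 had enough counts to test. None of the 11 was called between genotypes in either kind of RNA with edgeR, DESeq2 or limma-voom. Unadjusted edgeR p was under 0.05 for 3 in Input and 1 in IP, against 469 and 343 of all 6596 genes. After adjustment edgeR called 0.182% and 0.0910% of all genes. Of these 11, Dhrs4, a retinal reductase, was lower in IP than in Input in WT (log2 fold change -0.83, SE 0.21, edgeR adjusted p 0.00830), and Dhrs3, another retinal reductase, was higher in KO (0.84, SE 0.28, adjusted p 0.0433). Neither call was firm: Dhrs4 was lost without WT Input 2, WT IP 1 or WT IP 3 (-0.77 to -0.65, adjusted p 0.0526 to 0.0918), and Dhrs3 without KO Input 2, KO Input 3 or KO IP 1 (0.63 to 0.73, adjusted p 0.159 to 0.171). In the intracellular lipid-binding family 3 of 13 relatives were tested, and Fabp3 alone was called, lower in IP in both genotypes. Of the Ly6 family of Gpihbp1, 5 of 20 were tested and 1 was called: Lynx1, a modulator of nicotinic receptors, was higher on ribosomes in both genotypes (0.99 and 1.58, adjusted p 0.00471 and 0.000118). Ly6c1, a Ly6 gene of endothelium and monocytes, was not called (-0.11 in WT and -0.41 in KO, edgeR adjusted p 0.730 and 0.158). Beside these few calls, 5.37% of all genes were called higher in IP and 8.67% lower in WT, and 6.64% and 9.78% in KO.

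PPAR target genes, to which Fabp4 and Rbp7 belong, gave no genotype call with the same 3 tools among the other 27 tested of 28. Unadjusted edgeR p was under 0.05 for 5 in Input and 2 in IP, against 469 and 343 of all 6596 genes. Their median log2 fold change between genotypes was -0.21 in Input and -0.04 in IP. In WT hearts 4 were lower in IP than in Input and none higher, led by Cpt1b, the mitochondrial gate for long-chain fatty acids (-4.45, SE 0.71, edgeR adjusted p 8.86e-05), and the acyl-CoA thioesterase Acot1 (-1.34, SE 0.31, adjusted p 0.00459). Cpt1b was at the counting floor on WT ribosomes, with 3 pooled counts in WT IP against 47 in WT Input. The size of its fold change is therefore imprecise. In KO hearts 4 were lower and 2 higher, or 2 lower without KO IP 2 and 1 to 2 higher with 1 library left out. Over all genes, 8.67% were called lower and 5.37% higher in WT, and 9.78% lower and 6.64% higher in KO. Between genotypes the shares of all genes called after adjustment were 0.182% in Input and 0.0910% in IP.

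Endothelial markers as a list showed no genotype call, with 1 exception among the capillary genes. None of the 33 other pan-endothelial markers tested was called between genotypes in Input or in IP with edgeR, DESeq2 or limma-voom. Unadjusted edgeR p was under 0.05 for 4 in Input and 0 in IP, against 469 and 343 of all 6596 genes. The medians of the list were 0.16 and 0.07. Of all genes, edgeR called 0.182% between genotypes in Input and 0.0910% in IP. Pecam1, an adhesion protein of endothelial junctions, had log2 fold changes of 0.30 in Input and 0.25 in IP (edgeR adjusted p 0.856 and 0.985), and Cdh5, the endothelial cadherin, 0.15 and -0.14 (0.915 and 0.985). Of 15 other capillary markers tested, 1 was called in Input, Sgk1, a stress-induced kinase. It was at 37.4, 44.4 and 47.0 CPM in WT Input and at 87.6, 204 and 193 CPM in KO Input (1.90, SE 0.35, edgeR adjusted p 0.0108). All KO Input libraries lay above all WT Input libraries, as for 6.17% of the genes tested. The call was lost without WT Input 1, KO Input 2 or KO Input 3 (1.64 to 1.79, adjusted p 0.0646 to 0.156). On ribosomes Sgk1 was at 17.8, 29.1 and 33.5 CPM in WT and at 28.0, 15.7 and 11.6 in KO, which overlapped (-0.58, SE 0.41, adjusted p 0.980). Its KO against WT values thus had the same signs as those of Rbp7 in both kinds of RNA, and the genotype difference of its IP to Input ratio was -2.48 (SE 0.54), which DESeq2 called but edgeR did not (adjusted p 0.0984). In IP against Input the capillary markers had 1 higher and 1 lower in WT, Cxcl12 and Rgcc, the latter lost without WT IP 2, WT IP 3 or any 1 WT Input library (-0.98 to -0.85, adjusted p 0.0516 to 0.0821), and 1 higher and 4 lower in KO, against the 6.64% and 9.78% of all genes. The higher one was Cxcl12, lost without KO Input 1 or KO IP 3 (0.75 and 0.73, adjusted p 0.0815 and 0.0647), and Sgk1 was among the lower ones (-3.17, SE 0.37, adjusted p 9.01e-07). Car4, a capillary carbonic anhydrase, was near the counting floor, at 6.85 to 23.1 CPM over the 12 libraries. Of the 33 pan-endothelial markers, 5 were called higher and 3 lower on ribosomes in WT (2 to 4 higher and 3 to 4 lower with 1 library left out). In KO 6 were called higher and 6 lower. Of all genes, 5.37% were called higher and 8.67% lower in WT, and 6.64% and 9.78% in KO, for this list and the capillary one. Median log2 fold changes of IP against Input were -0.04 in WT and -0.37 in KO for the pan-endothelial list. For the capillary list they were 0.11 and -0.18, against 0.02 and 0.01 for all genes. The summed capillary list was at 2364 to 2450 CPM in WT IP and 2677 to 2905 in WT Input. In KO it was at 1918 to 2429 in IP and 2685 to 3694 in Input. Cd36 made up most of that sum in WT Input (1501 to 1867 CPM). Egfl7, a secreted vessel protein, was lower (-1.97 in WT, adjusted p 4.07e-07), and Podxl, a surface sialomucin, was higher (1.27, adjusted p 0.000145). Arterial, venous, cardiomyocyte, fibroblast, mural and erythroid markers gave no genotype call with any of the 3 tools. However, 6 of 10 erythroid genes had an unadjusted edgeR p under 0.05 in IP, against 343 of all 6596 genes.

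The genes whose levels most resembled each member over the 12 libraries were sought by Pearson correlation of log2 CPM among 6027 genes averaging at least 20 CPM. For Rbp7 the first 4 were Rpl7l1, Mtor, Gm3724 and Ppp1r2, with r of 0.923 to 0.823. For Fabp4 they were Ifitm1, Sat1, Hnrnpl, Ctla2a and Kif3a (0.954 to 0.926), and for Gpihbp1 they were Hist2h2ac, Scarb1, Cox16, Ndufa3 and Fxyd1 (0.958 to 0.943). All 5 genes found for Fabp4 and all 5 for Gpihbp1 had lower means in both IP groups than in both Input groups. The search favours genes that share a member's pattern, so these means, and those for Rbp7 below, are no independent result. The 4 named for Rbp7 had their lowest mean in KO IP, for example Gm3724, at 28.1 CPM in WT Input, 80.1 in KO Input, 74.6 in WT IP and 17.7 in KO IP. Between the members, r was 0.794 for Fabp4 with Gpihbp1, 0.423 for Rbp7 with Fabp4 and 0.467 for Rbp7 with Gpihbp1. Within the 6 Input libraries Fabp4 and Gpihbp1 had an r of 0.03, and within the 6 IP libraries 0.26. Rbp7 with Gpihbp1 had 0.59 in Input and 0.36 in IP, and Rbp7 with Fabp4 had -0.03 and 0.58. These are descriptions over libraries of 4 groups that differ in fraction, genotype and depth.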

How the data were processed

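Each of the 12 libraries has a deposited table of whole-number counts per gene, which the authors made from the reads. Per the submitters' processing notes, minimap2 2.14, DESeq2 1.34.0 and build GRCm38 were used; no source used here gives the counting rule. Of 55401 gene IDs, 55141 matched GENCODE M21 without the version. Counts were fitted with edgeR 4.0.16 (R 4.3.3) by its quasi-likelihood test: filterByExpr (minimum count 10, total 15), TMM scaling, 1 mean per group over all 12 libraries, and Benjamini-Hochberg adjustment over 6596 genes, with a threshold of 0.05. The common biological coefficient of variation was 18.2%. IP and Input differed in cycloheximide treatment and RNA purification as well as in fraction, and these cannot be told apart. Levels are CPM with TMM factors; correlations used log2 CPM with a prior count of 2. Sequences came from the GENCODE M21 transcripts, compared with BLAST 2.17.0. The fit was tested on simulated counts. DESeq2 1.42.0 and limma 3.58.1 (voom), other scalings, filters and left-out libraries were alternatives. The genes and all gene lists were chosen with earlier results of these data known, so no list's count is independent support. Genes are named by a rule: the 3 members, Rpl3l, 11 pathway and marker genes, up to 3 called genes per list and contrast with the smallest p, and the 5 genes most like each member; the listed genes at 0, Gm3724's values and the quartiles were added after their values were seen. Some genes that the rule names are not reported here.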

Additional observations from a re-analysis of the deposited data

Results flagged for a closer look

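Rbp7 had genotype differences of opposite sign in the 2 kinds of RNA. All 3 KO libraries were higher than all 3 WT libraries in Input, as for 6.17% of the genes tested. In IP all 3 were lower, as for 5.44%. The Input difference did not pass with edgeR (log2 fold change 0.83, adjusted p 0.580). Without WT Input 3 it was 0.58 (adjusted p 0.804). The difference between the Input and IP log2 fold changes was -2.59 and was not tested, because the IP libraries were used to pick the gene.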

How the results depend on the processing

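Of 98 recomputed values for the 7 tested results of the 3 genes, 83 kept their direction and side of the threshold, and none reversed; the 8 untested descriptions kept their direction in all 127 recomputed values, a direction that the choice of Rbp7 partly fixes. No alternative brought a member past the threshold for KO against WT in Input (14 each), and all 14 kept Fabp4 and Gpihbp1 lower in IP in KO hearts (adjusted p 8.56e-07 to 0.00264 and 0.000474 to 0.0104). Fabp4 in WT passed with erythroid genes left out (-0.54), with only the compared libraries (-0.53), with DESeq2 (-0.52) and with limma-voom (-0.52), and ranged from -0.72 to -0.35 with 1 library left out. Gpihbp1 in WT did not pass with library totals (-0.60), with no count filter (-0.61) or with DESeq2 (-0.67), nor with 1 library left out (-0.74 to -0.59). The causes were not tested. With no count filter the calls numbered 77 in Input between genotypes, 55 in IP and 37 for the genotype difference of the ratio, against 12, 6 and 6; DESeq2 gave 11 in IP, and limma-voom 1 for the ratio. With 1 library left out they ran from 4 to 17 in Input (4 without WT Input 1, 5 without KO Input 3), 2 to 7 in IP, 601 to 686 for WT IP against Input and 1 to 8 for the ratio. With totals in place of TMM factors, the median over all genes shifted by 0.15 (IP against Input in KO) and 0.12 (KO against WT in IP); the calls were then 599 higher and 448 lower in the first (438 and 645 with TMM) and 3 and 2 in the second (2 and 4). Replicate numbers did not pair libraries: 18 same-number correlations ran from -0.12 to 0.04, and own numbers correlated best in 3 of 36 cases. With the replicate block, Rbp7 in Input was 0.84 (adjusted p 0.591) and calls numbered 15 in Input, 8 in IP, 858 in WT, 1009 in KO and 4 for the ratio. Rbp7 rests on 6 to 53 counts a library, which limits its precision.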
